A study of Mus musculus with 6 samples.

Results

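Collagen leaves the fibroblast as a soluble precursor and becomes a fibre only after a chain of enzymes has worked on it. Inside the endoplasmic reticulum, prolyl and lysyl hydroxylases modify the chains and the chaperone Hsp47 holds the finished triple helix. Outside the cell, proteinases cut off the end propeptides, which lets fibrils form, and lysyl oxidases then cross-link them. In fat this matrix surrounds each adipocyte, and its remodelling goes along with changes in the size of the depot.

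Described here are 10 genes of that chain out of 25894 genes in the table: Pcolce, Pcolce2, Bmp1, Adamts2, Lox, Loxl1, Loxl2, P4ha1, Plod1 and Serpinh1. They were taken by symbol, all 10 were found, and all 10 passed the filter on low values. RNA sequencing was done on inguinal white adipose tissue, the subcutaneous fat of the groin, of female C57BL/6N mice given as 15 weeks old. One group of 3 mice (called fragmented, recovered 1 to 3) had their sleep fragmented over 8 weeks, followed by 2 weeks of recovery. Another 3 mice (control 1 to 3) carry the label control with no further detail. All mice were fasted for 10 hours before the tissue was taken, and each library came from 1 mouse. Pcolce had drawn attention as a gene with a small p-value in this same comparison and the others were chosen as its partners. Their differences between the groups are therefore given as a description, without a test. The comparison asks which transcripts of fat differ from controls after recovery sleep. No mice sampled before recovery are among the libraries, so persistence of an earlier difference was not tested.

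Values are normalised read counts, that is, reads per gene divided by 1 size factor per library, and the libraries held 15610201 to 19703569 reads. Adipocyte markers were present, with 8 of 8 above 0 in every library, which does not identify the depot. Their summed levels were 265217 to 534811 in fragmented, recovered mice and 135566 to 394468 in controls. The libraries were not alike in other tissue. Markers of B and plasma cells summed to 802.7 to 18853 in fragmented, recovered mice and to 919.8 to 46561 in controls, high in fragmented, recovered 2 and in controls 2 and 3. Controls 2 and 3 also stood apart in composition: the Spearman rho across genes between a library's deviation and GC content was -0.27 in each of them and between 0.13 and 0.37 in the other 4 libraries. Differences are therefore also given without controls 2 and 3, which leaves control 1 as the single control, assumed to vary like the other mice. In bulk tissue, fewer cells of a type and less RNA per cell cannot be told apart.

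RefSeq promoter sequences (build GRCm38.p6) were used for 6 of the 10 genes: Pcolce, Pcolce2, Adamts2, P4ha1, Plod1 and Serpinh1. Bmp1, Lox, Loxl1 and Loxl2 are not covered, and the search for members left out the chromosome that holds Lox. Those of Pcolce, its paralogue Pcolce2 and Serpinh1 are shown. Of the members, Serpinh1 had the profile closest to Pcolce over the 6 libraries, though its groups overlapped, and Pcolce2 followed Pcolce less closely. Whether promoter letters bear on the profiles was not tested. Each run is the 250 bases before the start of the gene, read 5′ to 3′ on the gene's own strand. Capitals mark matches, on either strand, to any of 6 motifs: the GC box GGGCGG, the CCAAT box CCAAT, the TATA box TATAAA, the hypoxia response core ACGTG, the SMAD element CAGAC and the AP-1 site TGANTCA.
Pcolce, chr5:137611405-137611654, minus strand: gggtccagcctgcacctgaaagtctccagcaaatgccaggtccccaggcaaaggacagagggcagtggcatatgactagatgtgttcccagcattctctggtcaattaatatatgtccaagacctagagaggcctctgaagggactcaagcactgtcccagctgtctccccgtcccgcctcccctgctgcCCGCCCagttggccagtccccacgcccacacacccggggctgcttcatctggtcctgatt
Serpinh1, chr7:99353240-99353489, minus strand: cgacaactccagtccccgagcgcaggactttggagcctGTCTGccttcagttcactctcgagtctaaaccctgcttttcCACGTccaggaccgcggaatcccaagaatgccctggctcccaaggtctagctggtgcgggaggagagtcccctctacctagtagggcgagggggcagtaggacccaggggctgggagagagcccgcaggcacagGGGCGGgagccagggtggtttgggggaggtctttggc
Pcolce2, chr9:95637378-95637627, plus strand: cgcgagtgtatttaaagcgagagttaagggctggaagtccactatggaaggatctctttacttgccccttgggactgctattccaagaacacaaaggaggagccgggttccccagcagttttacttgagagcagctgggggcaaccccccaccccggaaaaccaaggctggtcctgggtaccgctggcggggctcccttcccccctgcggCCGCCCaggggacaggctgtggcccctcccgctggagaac
A GC box was present in all 6 promoters, against 32.9% of 27025 promoters of the same length. Its first base, as printed, lay 60 bases before the start in Pcolce, 37 in Serpinh1 and 40 in Pcolce2. The Serpinh1 window also held the hypoxia response core, present in 16.6% of all promoters and in 2 of the 6 here, and the SMAD element, present in 42.1% of all and in 2 of the 6. The CCAAT box and the AP-1 site had no match in the 6 windows, against 34.5% and 6.87% of all promoters, and the TATA box matched in Plod1, against 13% of all. A match is a run of letters and not a measured binding site.

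Pcolce, which encodes an extracellular protein that speeds the removal of the procollagen C-propeptide, had the largest difference of the 10. Fragmented, recovered mouse 1 had a normalised read count of 1172, mouse 2 of 959 and mouse 3 of 673, while control mouse 1 had 584, mouse 2 had 239.6 and mouse 3 had 269.6. No control reached the lowest fragmented, recovered value, but fragmented, recovered 3 and control 1 were close, and the low controls were 2 and 3. The group values were 934 ± 250 (SD, n = 3) and 364 ± 191 (SD, n = 3), a ratio of 2.56, and the log2 difference was 1.44 with an SE of 0.38. The lowest library still held 212 Pcolce reads, so counting error is small beside the spread between mice. In the fit of all genes by limma 0 of the 10 members and 0 of 22290 genes passed an FDR of 0.05 (0% called). At an unadjusted p under 0.05 there were 2 members, Pcolce and Loxl1, both higher, where 723 genes (3.24%) were higher and 478 (2.14%) lower. Since the genes were chosen from this comparison, nothing is read from those counts.

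**Figure D1:**
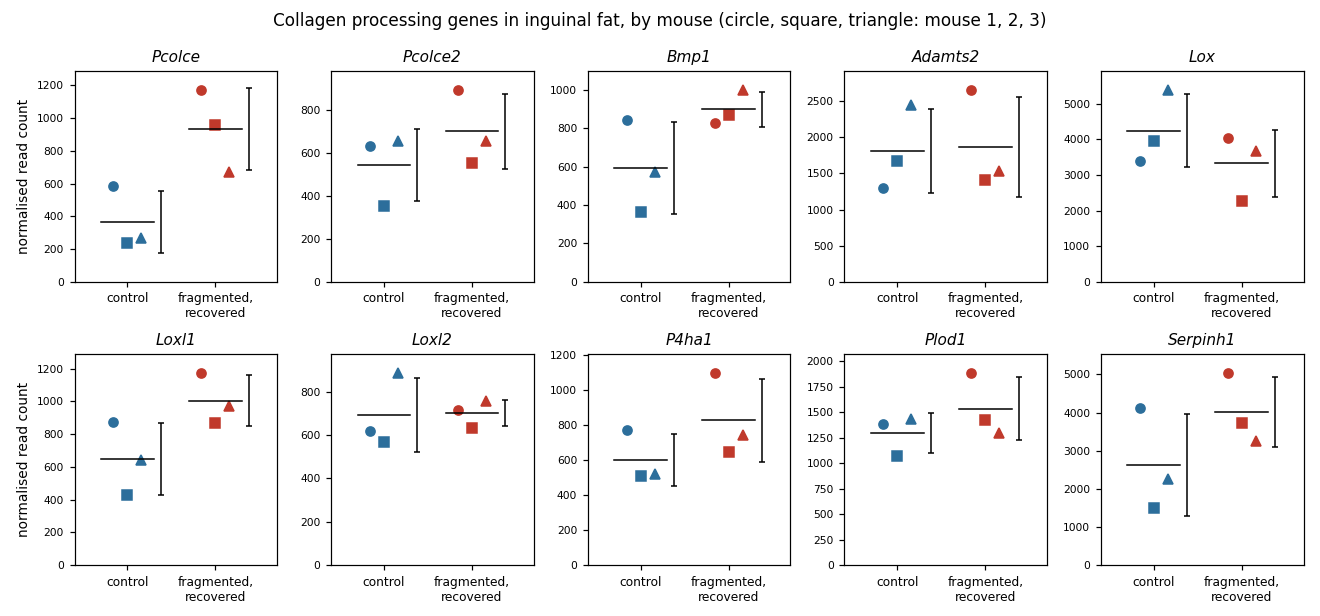
Normalised read counts (vertical axes, from 0) of the 10 genes in 3 control mice (blue) and 3 fragmented, recovered mice (red); circle, square and triangle are mouse 1, 2 and 3 of a group, the line is the mean and the bar beside it the SD. In Pcolce alone of the 10 the red points, from 673 to 1172, all lie above the blue ones, from 239.6 to 584.

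How far Pcolce stood above controls depended on which controls were counted. With control 1 left out the log2 difference was 1.84, and without controls 2 and 3 it was 0.64 (SE 0.38). Pcolce was among the 844 of 22290 genes (3.79%) that limma called without control 1, the control nearest to the other group, and among the 1023 of 16141 (6.34%) called by limma-voom with quality weights. Nothing is read from either call, since Pcolce was chosen for its small p-value in this comparison. Without the 3 libraries high in B cell genes it was 0.60 (SE 0.51), again against control 1 alone. After each library's trends with GC content and transcript length were taken out, the difference was 1.16 (SE 0.29) and the groups still did not overlap, which held for 4.79% of genes in the higher direction (3.65% in the lower). In that form the log2 levels about the gene's mean were 0.91, 0.60 and 0.23 for fragmented, recovered mice 1 to 3, against -0.02, -0.94 and -0.78 for control mice 1 to 3. Exons of Pcolce overlap Fbxo24 on the same strand and the antisense gene Gm36266. These had mean counts of 6.39 and 20.2 against 649 for Pcolce, and whether the counting used strand is not given in the sources used here.

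The nearest profiles to Pcolce were sought among 12938 genes with a mean count of at least 50, by the root mean square distance of centred log2 values over the 6 libraries. Gar1, a protein of small nucleolar RNA complexes, was nearest at 0.15, followed by Ccdc28b at 0.17, the calcium-binding protein gene S100a6 at 0.19, Pdlim7 at 0.21 and C1qtnf9, a secreted relative of adiponectin, at 0.21. Each of the 5 was low in controls 2 and 3: S100a6, for example, had counts of 3226, 2627 and 1768 in fragmented, recovered mice and 1972, 749 and 602 in controls. The differences of the 5 without controls 2 and 3 lay between 0.32 for S100a6 and Pdlim7 and 0.65 for Gar1. None of them is a collagen or a collagen-modifying enzyme. The members were farther from Pcolce than these, from 0.40 for Serpinh1, with 2.71% of genes nearer, through 0.47 for Loxl1 and 0.52 for Bmp1 to 0.96 for Adamts2 and 1.12 for Lox, with 72.7% of genes nearer.

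Pcolce2, a paralogue of Pcolce, followed that gene less closely than Serpinh1 did. Its counts were 893, 552 and 656 in fragmented, recovered 1 to 3 and 631, 353 and 653 in control 1 to 3, so the groups overlapped. The log2 difference was 0.38 (SE 0.32). It was 0.64 (SE 0.33) with the GC content and length trends removed and 0.12 (SE 0.34) without controls 2 and 3. Pcolce2 had its nearest profile among the members in Plod1, at a distance of 0.21, and its farthest in Pcolce, at 0.66. At that distance 19.6% of genes were nearer to Pcolce.

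The propeptide proteinases were unlike each other. Bmp1, the C-proteinase that the Pcolce protein assists, had counts of 824, 871 and 999 in fragmented, recovered mice and 841, 362 and 569 in control 1, 2 and 3. Control 1 lay within the fragmented, recovered range and controls 2 and 3 below it. The log2 difference was 0.68 (SE 0.32). It was 0.57 (SE 0.29) with the GC content and length trends removed and 0.09 (SE 0.20) without controls 2 and 3. Adamts2, the N-proteinase, had counts of 2657, 1409 and 1529 against 1303, 1674 and 2447. Its highest values, in fragmented, recovered 1 and in control 3, came from both groups, and the log2 difference was 0.03 (SE 0.32). The sign for Adamts2 changed with the mouse left out, from -0.25 without fragmented, recovered 1 to 0.28 without control 3, and it was 0.46 (SE 0.46) without controls 2 and 3.

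Serpinh1 encodes the collagen chaperone Hsp47, which binds the triple helix in the endoplasmic reticulum. Its counts were 5031, 3721 and 3265 in fragmented, recovered mice and 4114, 1503 and 2261 in control 1, 2 and 3. Control 1 was above 2 of the 3 fragmented, recovered mice. The log2 difference was 0.71 (SE 0.36), 0.33 with the GC content and length trends removed, and -0.06 (SE 0.33) without controls 2 and 3.

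Both intracellular hydroxylases had overlapping groups. P4ha1, a catalytic subunit of prolyl 4-hydroxylase, whose product gives the triple helix its thermal stability, had counts of 1096, 644 and 740 against 771, 508 and 518. Here too controls 2 and 3 were the low libraries, and the log2 difference was 0.45 (SE 0.29). It was 0.70 with the trends removed and 0.064 (SE 0.38) without controls 2 and 3. Plod1, a lysyl hydroxylase, ranged from 1295 to 1884 in fragmented, recovered mice and from 1068 to 1433 in controls. Its log2 difference was 0.24 (SE 0.25), and 0.12 (SE 0.29) without controls 2 and 3.

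Among the lysyl oxidases, Lox and Loxl1 had differences of opposite sign. Lox, the main cross-linking enzyme of collagen and elastin, had counts of 4030, 2260.5 and 3677 in fragmented, recovered mice and 3396, 3940 and 5386 in control 1, 2 and 3. The groups overlapped, with the lowest value in fragmented, recovered 2 and the highest in control 3. Its log2 difference was -0.37 (SE 0.30), the single negative value among the 10, and it was -0.00139 with the GC content and length trends removed and -0.075 (SE 0.42) without controls 2 and 3. Loxl1, best known for its part in elastic fibres, had counts of 1173, 870.1 and 973 against 871.8, 427 and 645. Control 1 and fragmented, recovered 2 were level, and the log2 difference was 0.68 (SE 0.30). It was 0.26 with the trends removed and 0.19 (SE 0.25) without controls 2 and 3. Loxl2 ranged from 634 to 756 in fragmented, recovered mice and from 567 to 886 in controls, with a difference of 0.05 (SE 0.26), and 0.18 (SE 0.20) without controls 2 and 3.

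**Figure D2:**
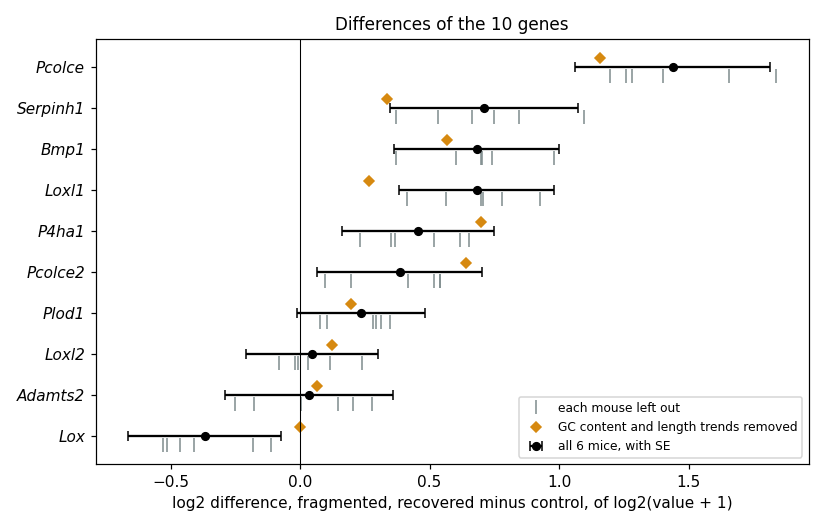
Log2 difference of fragmented, recovered minus control mice (horizontal axis) for each of the 10 genes: black points with SE for all 6 mice, grey ticks with each mouse left out in turn, orange diamonds with GC content and length trends removed. Pcolce is farthest from 0, between 1.20 and 1.84 with each mouse left out, and Lox is the single gene with a negative value for all 6 mice.

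Over the 10 genes the mean was higher in fragmented, recovered mice for 9 and lower for 1, with a median log2 difference of 0.42. Over all 22290 genes tested, 51.6% had a positive value and the median was 0.02. The groups did not overlap in 1 of the 10 genes, Pcolce, in the higher direction, and in 0 in the lower direction, against 5.02% and 3.58% of all genes. Without controls 2 and 3 the median of the members was 0.12, with 8 positive and 2 negative values, and with control 1 left out it was 0.58, with 7 positive and 3 negative.

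Control 2 was the lowest library for 8 of the 10 genes, where 17.5% of all genes tested had their lowest value there. The exceptions were Adamts2, lowest in control 1, and Lox, lowest in fragmented, recovered 2. Fragmented, recovered 1 was the highest library for 7 of the 10, against 18.8% of all genes. The medians of the 10 centred log2 levels were 0.57, -0.03 and 0.12 in fragmented, recovered 1 to 3 and 0.07, -0.60 and -0.12 in control 1 to 3. Serpinh1, Bmp1 and Loxl1 were near one another, with distances of 0.18 between Bmp1 and Loxl1 and 0.19 between Serpinh1 and Loxl1. Adamts2 and Lox were each other's nearest, at 0.30.

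**Figure D3:**
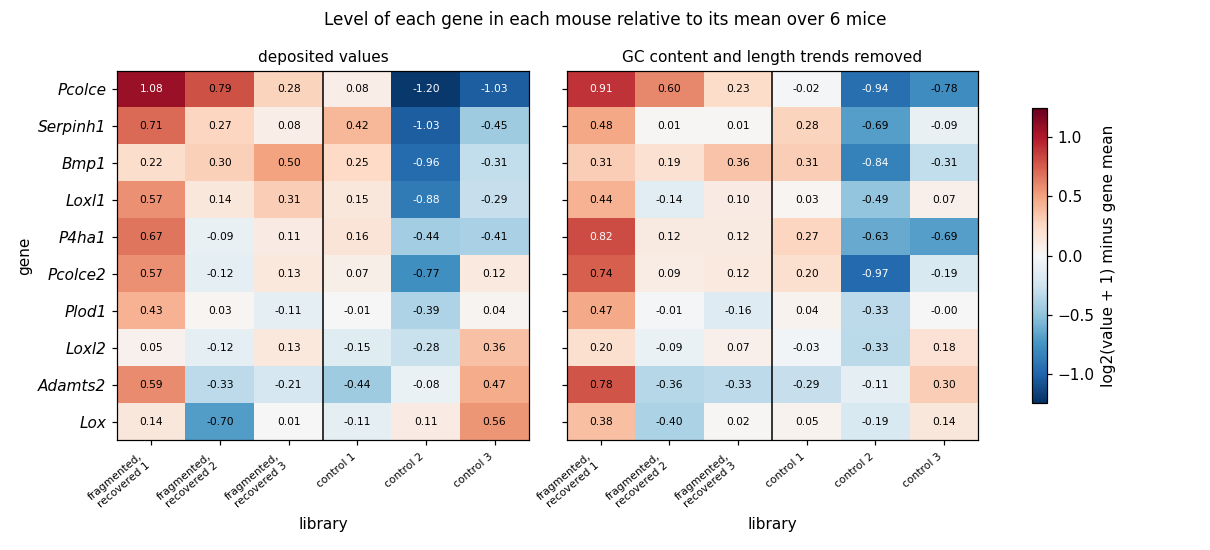
Log2 level of each gene (rows) in each library (columns) minus its mean over the 6 libraries, for deposited values on the left and with GC content and length trends removed on the right; red is above and blue below the gene's mean, and the black line parts fragmented, recovered from control mice. Pcolce in control 2 goes from -1.20 on the left to -0.94 on the right, and Lox in control 3 from 0.56 to 0.14.

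Several measures of the libraries moved with these profiles. The longest transcript had a GC content above the 49.1% median of all genes tested in 7 of the 10 genes, from 51.7% in Loxl2 to 61.0% in Loxl1, with Pcolce at 54.8%. The other 3 were Lox at 43.9%, P4ha1 at 45.7% and Pcolce2 at 46.2%. Removing the trends brought Loxl1 and Serpinh1 nearer to 0 and moved P4ha1 and Pcolce2 away from it. Fibroblast and progenitor markers, 10 of 10 above 0 in every library, summed to 14996 to 21918 in fragmented, recovered mice and 13396 to 15809 in controls. Their median centred levels were 0.53, 0.06 and -0.01 in fragmented, recovered 1 to 3 and -0.04, -0.45 and -0.09 in control 1 to 3. The adipocyte marker medians were 0.77, 0.05 and -0.06 against 0.35, -0.57 and -0.58, and those of mammary epithelium, 6 of 6 above 0, were 0.22, 0.67 and 0.64 against 0.78, -1.16 and -1.07. Mammary epithelium markers summed to 23196 to 30580 in fragmented, recovered mice and to 7593 to 33088 in controls. Of 6 skeletal muscle markers, 5 were at 0 in some library, and they summed to 381.9 to 68587 in fragmented, recovered mice, highest in fragmented, recovered 1, and to 169.3 to 8957 in controls. By median centred levels, the adipocyte and mammary epithelium lists overlapped between groups. The fibroblast and progenitor list parted them narrowly, with fragmented, recovered 3 at -0.01 and control 1 at -0.04. A further 2 lists also parted the groups. Schwann cell markers, 4 of 4 above 0, had 0.63, 0.084 and 0.049 against -0.56, -0.43 and -0.17, and summed to 2527 to 4277 in fragmented, recovered mice and 2035 to 2095 in controls. Smooth muscle and pericyte markers, 6 of 6 above 0, had 0.40, 0.095 and 0.62 against 0.068, -0.76 and -0.45, and summed to 12782 to 21203 against 9824 to 15148. The part of these tissues in the result was not tested.

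Levels were also taken relative to marker genes of the same library. For Pcolce the log2 level minus the median of the 10 fibroblast and progenitor markers of the same library was -0.43, -0.58 and -0.62 in fragmented, recovered 1 to 3 and -0.86, -1.80 and -2.27 in control 1 to 3. The groups did not overlap, as for 1.39% of all genes in the higher direction (7.84% in the lower), and the difference was 1.10, with control 1 the nearest control. Against Col1a1 Pcolce also parted the groups, with a difference of 1.48, as did 3.7% of all genes in that direction and 5.23% in the other. Against the adipocyte markers 3 members did so, Pcolce at 1.20, Loxl1 at 0.44 and P4ha1 at 0.21, all higher, where 3.19% of all genes did in that direction and 3.87% in the other. Against the 8 fibrillar collagen genes with a mean count of at least 50 the difference was 1.20, but fragmented, recovered 3 at -2.02 lay below control 1 at -1.93. Lox had the opposite sign on this scale, with 0.37, -0.19 and 0.43 in fragmented, recovered mice and 0.60, 0.84 and 0.99 in controls. The difference was -0.61, between -0.72 and -0.41 with each mouse left out, and the groups did not overlap. On this scale 14.5% of all genes parted the groups in the lower direction and 1.77% in the higher, so 1 of 10 members in the lower direction is below the background share. The other 9 members overlapped between groups against fibrillar collagen.

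**Figure D4:**
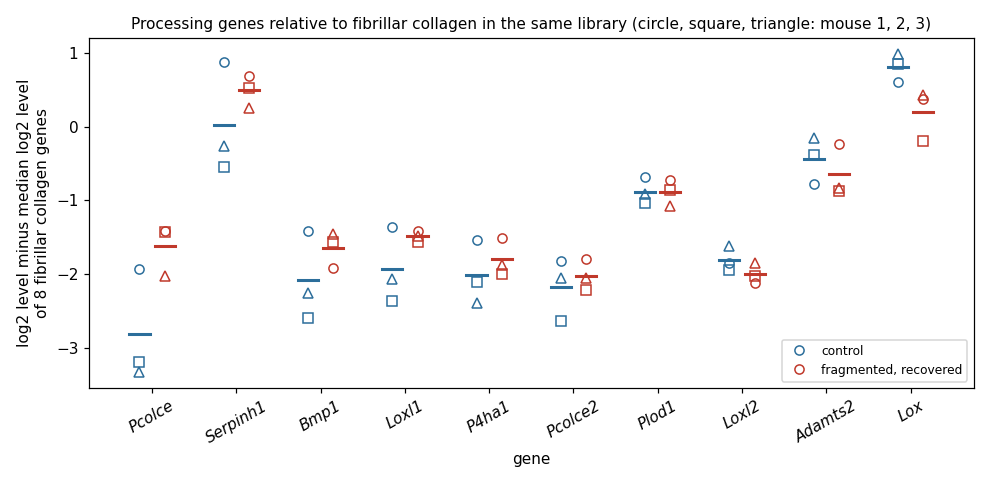
Log2 level of each gene minus the median log2 level of 8 fibrillar collagen genes in the same library (vertical axis), for control (blue) and fragmented, recovered mice (red); circle, square and triangle are mouse 1, 2 and 3 and the line is the mean. Gene length is not taken into account, so points compare only within a gene; for Lox all red points, up to 0.43, lie below the blue ones, from 0.60.

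Levels of different genes were compared per kilobase of the longest transcript, over all 6 libraries. Serpinh1 was highest at 1458 ± 561 (SD, n = 6) normalised counts per kilobase, then Lox at 798 ± 214 and Plod1 at 345 ± 65.1. Adamts2 at 253 ± 78.7, Pcolce at 252 ± 144 and Loxl1 at 251 ± 78.8 could not be ordered beyond their spread. P4ha1 followed at 176 ± 53.7, and Pcolce2 at 140.4 ± 39.4, Bmp1 at 139 ± 43.6 and Loxl2 at 131 ± 21.6 could not be ordered either. Serpinh1 was above Lox in 4 of 6 libraries, and Lox above Plod1 and Plod1 above Adamts2 in 6 of 6. For Pcolce the longest transcript has 2573 bases and the longest protein-coding one 1626, which puts its level at 399 ± 228 and its rank at 4. By the median transcript Adamts2 at 1592 ± 496, Serpinh1 at 1558 ± 599.7 and Plod1 at 1519 ± 286 could not be ordered beyond their spread. Adamts2 was above Serpinh1 in 2 of 6 libraries. By this length Plod1 was above Lox, at 821 ± 220, in 6 of 6 libraries, the reverse of their order by the longest transcript.

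Of the other collagen-modifying enzymes and chaperones, 24 genes were listed and 23 had a value and were tested, Tll2 being not analysed here. By limma 0 passed in either direction, with 1 at an unadjusted p under 0.05, and their median log2 difference was 0.12 beside 0.02 for all genes, with 17 positive and 6 negative values. The edgeR and DESeq2 tests on recovered reads also called 0 of the 23. The groups did not overlap in 3 of the 23, all higher and all prolyl 3-hydroxylases, against 5.02% of all genes. P3h3 had counts of 394, 382 and 388 in fragmented, recovered mice and 313, 147 and 225 in controls, a log2 difference of 0.83 (SE 0.33). Its fragmented, recovered values were close together and its controls spread widely, with control 2 lowest. The P3h3 difference was 0.31 (SE 0.19) without controls 2 and 3.

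P3h2 had counts of 200.1, 140.3 and 164 against 109.8, 118 and 79.1, a difference of 0.72 (SE 0.35). Control 3 was lowest there, and fragmented, recovered 1 highest. P3h1 had 438, 349 and 361 against 319.7, 244 and 297, a difference of 0.41 (SE 0.27). After removal of the GC content and length trends, the groups stayed apart for P3h2, at 0.61, and overlapped for P3h3 at 0.34 and P3h1 at 0.14. The partners of these enzymes overlapped between groups in both forms: Crtap, which works in a complex with P3h1, had a difference of 0.46 (SE 0.28) and P3h4 one of 0.55 (SE 0.32). Without controls 2 and 3 the differences were 0.60 for P3h2, 0.25 for P3h1, 0.054 for Crtap and 0.066 for P3h4.

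Other steps had overlapping groups too. P4ha2, a second catalytic subunit of prolyl 4-hydroxylase, had a difference of 0.58 (SE 0.33), and Plod2, the lysyl hydroxylase of the telopeptides, one of 0.52 (SE 0.48). Furin, the convertase that activates the Bmp1 proenzyme, had 0.40 (SE 0.23), and Mia3, needed to load procollagen into transport carriers, -0.38 (SE 0.23). Against control 1 alone these were 0.058 for P4ha2, -0.16 for Plod2, 0.081 for Furin and -0.05 for Mia3.

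**Figure D5:**
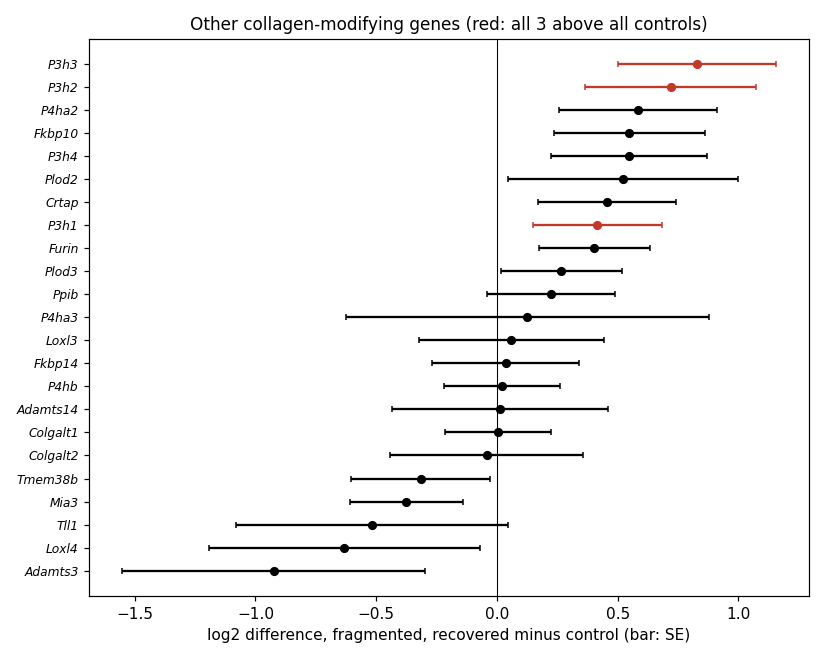
Log2 difference of fragmented, recovered minus control mice with SE (horizontal axis) for 23 other collagen-modifying genes (vertical axis); red marks genes whose 3 fragmented, recovered mice all lie above all controls. The red genes are P3h3 at 0.83, P3h2 at 0.72 and P3h1 at 0.41.

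The substrates of these enzymes were listed as well. Of 11 fibrillar collagen genes, 9 were tested and 0 passed by limma, with 0 at an unadjusted p under 0.05, and their median log2 difference was 0.24. Col3a1 and Col1a2, the most abundant, had differences of -0.08 (SE 0.29) and -0.29 (SE 0.27). Col5a3, a minor chain of type V collagen, had counts of 2824, 2295 and 2404 against 1783, 1536 and 2013, a difference of 0.50 (SE 0.22). All 3 fragmented, recovered mice were above all controls for Col5a3 and for Col5a1, at 0.24 (SE 0.21), the latter named after its values were seen, where 5.02% of all genes did so. With trends removed the groups overlapped for both. Col11a1, also named after its values were seen and with a mean count of 55.7, parted the groups only with trends removed, at 0.71. In that form 4.79% of all genes did so in the higher direction. Without controls 2 and 3 the differences were 0.49 for Col5a3, 0.26 for Col5a1, 0.053 for Col3a1 and 0.061 for Col1a2.

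Among 14 matrix proteins that bind collagen, Bmp1 or the lysyl oxidases, 0 passed by limma and 0 had an unadjusted p under 0.05, with a median of 0.05. Sparc and Dcn, the most abundant, had differences of 0.46 (SE 0.34) and -0.21 (SE 0.34), and Dcn turned to 0.41 with the trends removed. Efemp2, the fibulin that helps Lox reach elastin, had the largest difference, 0.87 (SE 0.49), with control 1 at 509 inside the fragmented, recovered range of 304 to 565. Fn1, the fibronectin gene and also named after its values were seen, was lower in all 3 fragmented, recovered mice than in all controls, at -0.50 (SE 0.29). Its counts were 3746, 6439 and 6755 against 7512, 6996 and 8817, and 3.58% of all genes parted the groups in that direction. Against control 1 alone the differences were 0.16 for Sparc, -0.17 for Dcn, -0.29 for Efemp2 and -0.46 for Fn1.

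Regulators known to act on these enzymes were also listed. Of 15 genes of TGF-beta signalling 0 passed by limma and 0 had an unadjusted p under 0.05, with a median of -0.09. Tgfbr2 and Smad4, the most abundant, had -0.38 (SE 0.28) and -0.53 (SE 0.27), and the ligand gene Tgfb3 had 0.77 (SE 0.47). Of 14 hypoxia-inducible genes 0 passed by limma, with a median of -0.01, and 1, Pdk1, had an unadjusted p under 0.05. Pdk1 had counts of 1465, 1452 and 2043 against 2390, 2564 and 3707. Its difference was -0.79 (SE 0.26), with no overlap, as for 3.58% of all genes in the lower direction. Ldha and Bnip3 had -0.40 (SE 0.32) and -0.54 (SE 0.33). Set against control 1 alone, the differences were 0.15 for Tgfbr2, -0.034 for Smad4, -0.42 for Tgfb3, -0.55 for Pdk1, -0.77 for Ldha and -0.38 for Bnip3. In the same libraries P4ha1, a known hypoxia target, had 0.45 and Lox, another, -0.37.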

How the data were processed

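RNA was extracted from inguinal fat of single mice and sequenced, and per the submitters' processing notes CASAVA, HISAT2 2.0.5 and featureCounts 1.5.0-p3 were used with mouse build mm8. The table the authors deposited holds a signal value per Ensembl gene and mouse. In every library 100% of values were whole multiples, within 0.02, of that library's smallest nonzero value, so the deposited signal was treated as read counts divided by a size factor. The scaling step itself is not given in the sources used here. Symbols came from a gene name table, with 33 identifiers unmatched.

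The main fit was limma 3.58.1 in R 4.3.3 with an intensity trend on log2(value + 1), applied to the 22290 genes whose mean reached 1, and p-values were adjusted by Benjamini-Hochberg to an FDR of 0.05. Low genes have understated differences on that scale. As alternatives, the recovered reads were tested with edgeR 4.0.16 and with DESeq2 1.42.0. The fits were tested on simulated data in which genes varied independently, without the tissue differences seen between these libraries. Length and GC content came from GENCODE M21 transcripts, for 99.9% of genes tested, and each library's trend was fitted with splines (4 degrees of freedom) and subtracted. The members and all gene lists were chosen with earlier results of these data known. Genes named from a list are its 2 most abundant and the largest difference at a mean of at least 50, with any of the other collagen-modifying genes allowed, plus the 5 profiles nearest to Pcolce and each member's nearest member.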

Additional observations from a re-analysis of the deposited data

How the results depend on the processing

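With all 6 mice, 0 genes passed with other scalings, pseudocounts of 0.1 and 5, a mean of at least 10 or no filter. The same held for trends removed, the replicate block, edgeR (754 of 16141 genes at an unadjusted p under 0.05) and DESeq2 (1186 of 25776). Limma had 1201 of 22290 at that unadjusted p. The exception was limma-voom with quality weights, at 1023, where Pcolce was at 1.68. With each mouse left out the count was 0 to 844 and Pcolce lay between 1.20 and 1.84. Only the fit without control 1 made calls. With trends also removed, that fit called 88 genes (0.395%), and Pcolce, at 1.44, was not among them. Of the 23 other collagen-modifying genes 0 passed in any fit run.

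Whether replicate numbers pair the mice is not stated in the labels and could not be settled with 3 mice per group. Deviations of same-numbered mice correlated at 0.18, 0.39 and 0.042, and those of the other pairings between -0.36 and 0.21. Fragmented, recovered 1 and 2 correlated best with the control of the same number, and fragmented, recovered 3 with control 1. With the number as a replicate block Pcolce had 1.44, and 1.16 with trends removed, and 0 genes passed in either. At an unadjusted p under 0.05 limma gave 2676 genes with the block against 1201 without it. With trends removed these were 1969 and 839.

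Signs that turned, each with cause not tested: with quality weights Adamts2 -0.29 and Loxl2 -0.081; scaled by library size alone, which moved the median of all genes from 0.02 to 0.14, Col3a1 0.041; with trends removed, with or without the block, Dcn 0.41. With each mouse left out, Adamts2 ranged from -0.25 to 0.28, Loxl2 from -0.082 to 0.24, Col3a1 from -0.15 to 0.0048 and Dcn from -0.41 to 0.034. With trends removed and without control 1, Adamts2 had -0.064, Lox 0.021, Crtap -0.0032 and Dcn 0.63. The fit with trends removed and without control 1, and those that follow, were chosen after seeing the data; the latter leave control 1 alone, assumed to vary like the other mice. Without controls 2 and 3, Serpinh1 had -0.063, Plod2 -0.16, Col3a1 0.053, Col1a2 0.061, Efemp2 -0.29, Tgfbr2 0.15 and Tgfb3 -0.42. Without the 3 libraries high in B cell genes, Lox had 0.18, Serpinh1 -0.022, Col3a1 0.042, Col1a2 0.065, Dcn 0.076, Efemp2 -0.069, Tgfbr2 0.13, Smad4 0.044 and Tgfb3 -0.29. Per kilobase levels moved with the transcript length used, and by the median transcript Adamts2, Serpinh1 and Plod1 could not be ordered. The order of Lox and Plod1 turned over between the longest and the median transcript.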
